A study of Mus musculus with 12 samples.

Results

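Histone genes were followed across 4 groups of mouse S100β-v-erbB/p53-/- TSC1 cells. They were taken as the transcript clusters whose gene symbol on the array, or older symbol in a RefSeq gene table, named an H1, H2A, H2B, H3 or H4 gene. The rule found 73 genes of 19505 named genes, each with 1 transcript cluster, of which 59 matched by the array's own symbol and 14 by an older symbol. They comprised 57 replication-dependent genes (5 of H1, 13 of H2A, 17 of H2B, 10 of H3 and 12 of H4) and 16 genes of histone variants. The other histone genes of the mouse genome were not analysed here. The question the design poses is how hypoxia, and a compound added in hypoxia, changed transcript levels.

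The groups were hypoxia with BFA (Brefeldin A, an inhibitor of ARF activation that blocks traffic between the endoplasmic reticulum and the Golgi), hypoxia with EHT-1864 (an inhibitor of Rac GTPases), hypoxia with the solvent DMSO, and normoxia with DMSO. Each had 3 arrays, numbered in the labels. The cells were of strain FVB-NJ, grew in serum-free DMEM F-12 medium with B27, and were exposed for 16 h, after which total RNA was hybridised to Clarion S mouse arrays. The labels give the EHT-1864 dose as 1 µM and the BFA dose as 1 µM in the protocol but 0.1 µM in the series title, which was not settled. Every group, controls included, carried v-erbB, an oncogenic form of the EGF receptor placed under the glial S100β promoter, and the p53 deletion. None of the groups is a control without these alterations. Trp53 itself was not analysed here. The design text speaks of 3 independent cultures, but whether equal array numbers share a culture is not stated.

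Histones package DNA into nucleosomes, each built of H2A, H2B, H3 and H4 around which the DNA is wound, with H1 on the linker. Replication-dependent histone genes lie in clusters, are transcribed mainly in S phase, and give mRNAs that end in a stem-loop bound by SLBP instead of a poly(A) tail. When DNA synthesis stops, these mRNAs are degraded. Variant histones such as H3.3, H2A.Z and macroH2A come from single genes outside the clusters, are mostly polyadenylated, and are made through the whole cell cycle.

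A gene was counted as above the floor when its signal exceeded the 95th percentile of the negative-control probes on all 3 arrays of at least 1 group. This held for 52 of the 57 replication-dependent genes and 11 of the 16 variant genes. The share of all clusters below the floor was 63.2 to 67.9% on the BFA arrays, 55.9 to 60.0% on the EHT-1864 arrays, 51.6 to 51.9% on the hypoxia DMSO arrays and 51.9 to 52.3% on the normoxia arrays. The spread of log2 signals was narrower on the BFA arrays (SD 2.22 to 2.32) and the EHT-1864 arrays (2.38 to 2.44) than on the hypoxia DMSO arrays (2.50 to 2.52) and the normoxia arrays (2.46 to 2.51). The part of these array-wide shifts in the histone results was not tested. All 7 glial and oligodendrocyte progenitor markers measured were above the floor in every group, while no microglial, endothelial or germ cell marker was on all 3 arrays of any group. Of 5 astrocyte markers, 0 were above the floor with BFA, 1 with EHT-1864 (Slc1a3), 2 with DMSO in hypoxia (Slc1a2 and Slc1a3) and 1 in normoxia, and the summed signal was 7.14 to 7.54, 7.79 to 7.91, 8.68 to 8.80 and 8.34 to 8.50 (log2) in that order. Of 5 neuron markers, Map2 was above the floor in every group and Syt1 in both DMSO groups, with summed signals of 8.03 to 8.07, 9.01 to 9.18, 9.51 to 9.72 and 9.46 to 9.52. Of 6 fibroblast and pericyte markers, Col1a1 was above the floor in every group, with summed signals of 7.32 to 7.66, 7.15 to 7.20, 6.74 to 6.94 and 7.0 to 7.11. The summed glial marker signal was 11.0 to 11.2 (log2) on BFA arrays, 12.3 to 12.4 on EHT-1864 arrays, 13.4 on hypoxia DMSO arrays and 13.4 to 13.5 on normoxia arrays. The part of these markers in the histone results was not tested either, and less RNA of these genes per cell cannot be told apart from fewer cells of a type.

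Replication-dependent histone genes were among the brightest features of the array. Their mean log2 RMA signal over all arrays ran from 3.50 to 12.47 with a median of 10.95, and 41 of the 57 lay in the brightest 5% of all clusters. The array median over the 52 genes above the floor was 10.78, 10.57 and 10.71 with BFA, 11.52, 11.63 and 11.38 with EHT-1864, 10.67, 10.91 and 10.85 with DMSO in hypoxia, and 11.24, 11.24 and 11.35 in normoxia. The EHT-1864 arrays were thus the highest and the normoxia arrays next, with no overlap between them, while the BFA and hypoxia DMSO arrays overlapped at the low end. How far the probes of near-identical histone copies tell those copies apart was not tested. H3c14 and H3c15 carried identical values on every array and amount to 1 measurement.

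**Figure D1:**
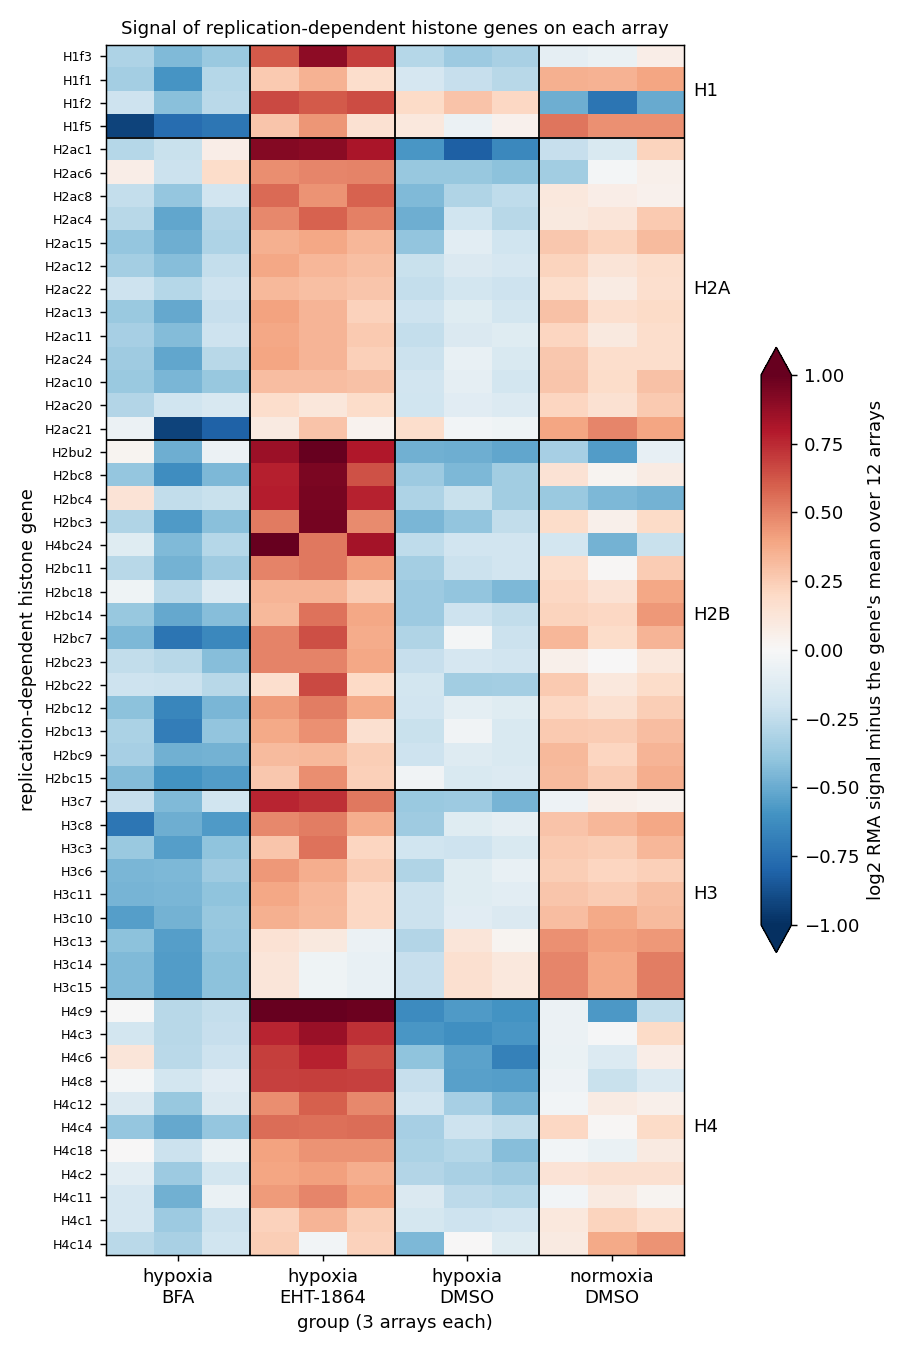
Log2 RMA signal of the 52 replication-dependent histone genes above the floor on each of the 12 arrays, drawn as the difference from the gene's own mean and ordered by family and by the EHT-1864 difference. Red marks high and blue marks low signal: the EHT-1864 columns are red in nearly every gene except H3c13, H3c14 and H3c15, and H1f2 is the gene with high signal on hypoxia DMSO arrays against low signal in normoxia.

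EHT-1864 raised most replication-dependent histone mRNAs in hypoxic cells, and lowered none of them past the threshold. Set against DMSO in hypoxia, 49 of the 57 passed limma's adjusted p of 0.05 with higher signal and 0 with lower signal. At an unadjusted p under 0.05 the counts were 52 higher and 0 lower. Among all 22206 clusters, 13.0% were called higher and 17.4% lower in this comparison. Among the clusters above the floor in either group the shares were 14.2% higher and 32.3% lower. Of the 52 replication-dependent genes above the floor, 46 were called higher and 0 lower. The median difference in log2 signal was 0.63 for all 57 genes, against 0.06 for all clusters. At a 1.5-fold minimum 31 genes remained called, all higher. Every family took part: 4 of 5 H1 genes, 12 of 13 H2A, 16 of 17 H2B, 7 of 10 H3 and 10 of 12 H4 genes rose, with median differences of 0.49, 0.51, 0.68, 0.49 and 0.80 in that order. The counts over all 57 genes include H1f6, H2bc1 and H3c1, which were below the floor on every array. Under quantile normalization and under subtraction of each array's median, the count stayed at 49 higher and 0 lower.

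H4c9, which codes for the core histone H4, showed the largest of these rises. Its log2 signal was 10.81, 10.78 and 10.66 on EHT-1864 arrays, against 9.05, 9.12 and 9.09 on hypoxia DMSO arrays. The groups were more than a log2 unit apart on every array, and the fitted difference of 1.66 ± 0.14 (SE, n = 3 each), or 3.16-fold, had an adjusted p of 4.17e-06 in limma. Another H4 gene, H4c3, read 11.66, 11.76 and 11.63 with EHT-1864, against 10.32, 10.28 and 10.32 with DMSO. It differed by 1.38 ± 0.11 (2.60-fold, limma adjusted p = 2.91e-06). H4c6 and H4c8 rose 2.35-fold and 2.19-fold.

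Among H2A genes, H2ac1 changed most. This gene is best known from testis, yet it was above the floor in every group here. It read 9.20, 9.18 and 9.10 with EHT-1864, against 7.70, 7.46 and 7.63 with DMSO in hypoxia, a difference of 1.56 ± 0.14 (2.95-fold, limma adjusted p = 9.44e-06). H2ac8 and H2ac6, both common somatic H2A genes, rose by 0.87 each on the log2 scale. H2ac13, H2ac12 and H2ac24, which lie in the main cluster and sat near the top of the signal range, rose by 0.50, 0.52 and 0.47. Whether probes this bright were saturated was not tested.

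The 17 H2B genes had differences from 0.44 to 1.49. H2bu2, the single member from the small Hist3 cluster, read 7.66, 8.13 and 7.61 with EHT-1864, against 6.33, 6.31 and 6.28 with DMSO. Its difference was 1.49 ± 0.18 (2.81-fold, limma adjusted p = 5.97e-05). H2bc8 read 10.41, 10.57 and 10.26 with EHT-1864, against 9.27, 9.18 and 9.28 with DMSO, and differed by 1.17 ± 0.12 (2.25-fold, limma adjusted p = 1.86e-05). H2bc4 rose 2.19-fold. In each of these 3 genes all EHT-1864 arrays lay above all DMSO arrays. Among linker histones H1f3 rose 2.08-fold, whereas H1f5 differed by 0.26 ± 0.12 and did not pass (limma adjusted p = 0.115).

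Most of the 8 genes that did not pass came from Hist2, the smaller cluster on chromosome 3, the others being H1f5 and H4f16. Of the 47 replication-dependent genes whose older symbol places them in Hist1, the large cluster, 46 rose with EHT-1864 (median difference 0.67), against 2 of the 8 genes of Hist2 (median 0.21). The Hist1 rises include H1f6, H2bc1 and H3c1, which were below the floor on every array. The Hist2 count takes H3c14 and H3c15 separately and includes H2bc21, which was above the floor on only 1 array, a hypoxia DMSO array. The passing Hist2 genes were H2bc18 (0.71) and H2ac20 (0.31). The H3 genes of Hist2 were H3c13, with a difference of 0.11 ± 0.13, and the shared measurement of H3c14 and H3c15, with −0.01 ± 0.13. H3c14 read 12.27, 12.11 and 12.07 with EHT-1864, against 11.92, 12.31 and 12.26 with DMSO in hypoxia. Its groups overlapped, and its level was among the brightest of all members. Across the 52 genes above the floor, level and EHT-1864 difference had a Pearson r of −0.41, a description over genes that share arrays. Whether the difference between clusters exceeds what level alone goes with was not tested.

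**Figure D2:**
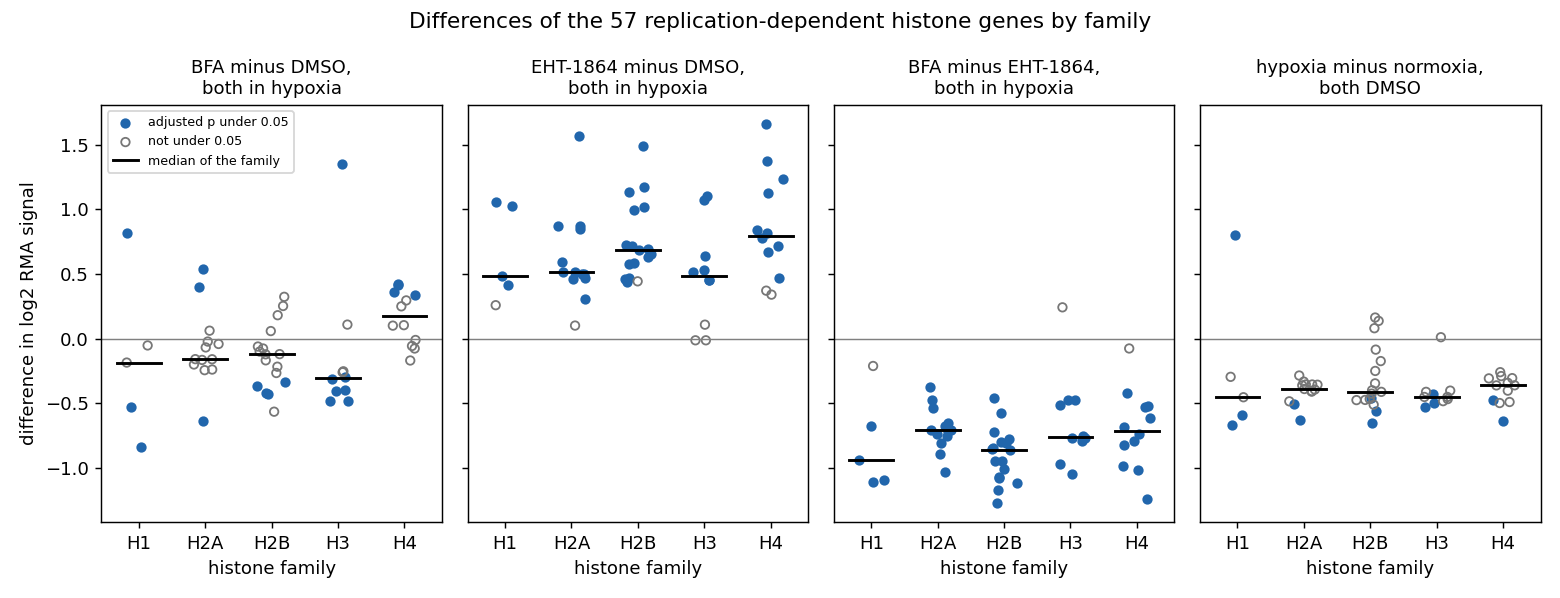
Difference in log2 RMA signal for each of the 57 replication-dependent histone genes, by family, in the 4 comparisons (filled points have a limma adjusted p under 0.05, bars are family medians). With EHT-1864 the family medians lie between 0.49 and 0.80, whereas with BFA the H4 median of 0.18 is the one above 0.

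Promoter windows were looked up because so many members moved together. RefSeq windows of 300 bases (250 before and 50 after the start, assembly GRCm38.p6) were matched for 66 of the 73 genes, and 3 motifs were searched on both strands. TATAAA, the letters of a TATA box, occurred in 29 of 52 replication-dependent windows (55.8%), against 13.6% of all 32851 windows in the table. It was on the gene's own strand in 24, and in 10 of those it began 20 to 40 bases before the start. CCAAT, the box bound by NF-Y, occurred in 44 of 52 (84.6%), against 37.4% of all windows. It was in every H1, H2A, H2B and H3 window but in only 3 of 11 H4 windows. ATTTGCAT, the octamer known from H2B promoters, occurred in 12 of 52 (23.1%), against 1.74% of all windows, and these 12 were 6 H2A and 6 H2B genes. Matches of different motifs may overlap, each motif was counted on its own, and windows of neighbouring genes share sequence.

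The windows below are printed because they hold the starts of genes that rose with EHT-1864 and of one that did not. Capitals mark the motif matches named above. H4c9 is at chr13:22041313-22041612 (minus strand), H4c3 at chr13:23698409-23698708 (minus strand), H2bc8 at chr13:23571150-23571449 (plus strand) and H3c14 at chr3:96246435-96246734 (plus strand).
H4c9: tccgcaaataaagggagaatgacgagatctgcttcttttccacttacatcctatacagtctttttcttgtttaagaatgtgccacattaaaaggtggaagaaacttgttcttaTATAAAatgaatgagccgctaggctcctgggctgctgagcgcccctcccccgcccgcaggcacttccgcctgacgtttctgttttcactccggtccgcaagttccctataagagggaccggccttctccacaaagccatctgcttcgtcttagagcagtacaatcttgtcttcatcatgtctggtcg
H4c3: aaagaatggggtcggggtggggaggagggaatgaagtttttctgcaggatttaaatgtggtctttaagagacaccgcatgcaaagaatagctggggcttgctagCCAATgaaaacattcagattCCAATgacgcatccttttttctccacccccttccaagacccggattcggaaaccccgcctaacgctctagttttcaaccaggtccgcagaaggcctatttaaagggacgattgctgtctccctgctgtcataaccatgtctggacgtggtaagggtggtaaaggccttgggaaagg
H2bc8: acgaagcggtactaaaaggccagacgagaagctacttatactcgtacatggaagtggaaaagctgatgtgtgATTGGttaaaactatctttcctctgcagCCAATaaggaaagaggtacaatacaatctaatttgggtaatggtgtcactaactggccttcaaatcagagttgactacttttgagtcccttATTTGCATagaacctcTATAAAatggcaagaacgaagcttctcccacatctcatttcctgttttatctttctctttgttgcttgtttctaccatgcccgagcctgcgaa
H3c14: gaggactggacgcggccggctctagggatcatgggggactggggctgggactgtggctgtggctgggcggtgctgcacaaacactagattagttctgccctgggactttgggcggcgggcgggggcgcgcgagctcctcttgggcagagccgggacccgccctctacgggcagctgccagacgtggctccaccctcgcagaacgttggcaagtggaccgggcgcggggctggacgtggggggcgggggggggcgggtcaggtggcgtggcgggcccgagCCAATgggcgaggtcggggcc
In H2bc8 the octamer starts 59 bases and TATAAA 43 bases before the start. H4c9 has TATAAA on its own strand 137 bases before the start and no CCAAT, H4c3 has 2 CCAAT boxes and no TATAAA, and the H3c14 window has CCAAT only after the start. A match describes letters, not a bound site.

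Many H2A and H2B genes lie head to head and share the sequence between them. In these windows 8 such pairs overlapped, by 220 to 279 bases, all on chromosome 13. With EHT-1864 both partners of all 8 pairs rose. The partner's log2 difference exceeded that of the H2A gene in 5 of 8 pairs, by a median of 0.09 and from −0.98 (H2ac1 and H2bc1) to 0.53 (H2ac24 and H4bc24, an H2B gene by its older symbol). H2bc1 was below the floor on all arrays, so its difference is not a measured level change. For H2ac8 and H2bc8, which share 279 bases including both motifs in capitals nearest the start, the differences were 0.87 and 1.17. The gaps between partners were not tested.

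BFA left replication-dependent histone mRNAs near their level in hypoxia with DMSO, with small changes in both directions. Among the 57, limma called 8 higher and 13 lower, with 36 short of the threshold, while 26.1% of all clusters were called higher and 24.6% lower. The members' shares in both directions were below these. Among clusters above the floor, 16.3% were higher and 46.1% lower. The median difference was −0.12, against 0.11 for all clusters and −0.30 for clusters above the floor. The split depended on scaling: it was 13 higher and 1 lower after quantile normalization, and 10 higher and 10 lower after subtraction of array medians. Without hypoxia DMSO array 3 the calls were 4 higher and 8 lower, and at a 1.5-fold minimum 2 higher and 2 lower. This comparison and the EHT-1864 comparison use the same hypoxia DMSO arrays.

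Of the 12 H4 genes, 4 rose and 0 fell with BFA (median difference 0.18). Among all clusters 26.1% were called higher and 24.6% lower, and among those above the floor 16.3% and 46.1%. The share that rose, 33.3%, was thus near that of all clusters and above that of clusters above the floor. This difference was not tested. After quantile normalization or median subtraction 5 rose and 0 fell. H4c3 read 10.72, 10.62 and 10.67 with BFA, against 10.32, 10.28 and 10.32 with DMSO in hypoxia. All BFA arrays were higher, by a fitted 0.36 ± 0.11 (1.28-fold, limma adjusted p = 0.0154). H4c9 (1.34-fold), H4c6 (1.33-fold) and H4c8 (1.26-fold) also passed. The calls of H4c9 and H4c6 were each lost without BFA array 1 or without hypoxia DMSO array 3. H4c9 lost its call without hypoxia DMSO array 1 too, and H4c8 without any of BFA arrays 1 and 3 and hypoxia DMSO arrays 2 and 3. Among H2A genes H2ac1 rose 1.45-fold and H2ac6 1.32-fold. H2ac6 lost its call without BFA array 1 or 3 or without any 1 hypoxia DMSO array. The remaining rises, of H3c1 and H1f6, were of genes below the floor on every array, and no fold is given for them.

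Of the 10 H3 genes, 6 fell and 1 rose with BFA, although quantile normalization left 0 lower and 2 higher. Among all clusters 24.6% were called lower and 26.1% higher, and among those above the floor 46.1% and 16.3%. The falls count H3c14 and H3c15 separately though they are 1 measurement, and the rise is that of H3c1, below the floor on every array. The clearest fall among replication-dependent genes was that of H1f5, a linker histone. It read 7.93, 8.09 and 8.13 with BFA, against 8.96, 8.80 and 8.90 with DMSO in hypoxia, so that no array overlapped. The difference was −0.83 ± 0.12 (1.78-fold lower, limma adjusted p = 8.15e-05) and passed under all scalings. The next falls were H2ac21 (−0.63, 1 of 3 BFA arrays above the floor), H1f2 (−0.53), H3c14 and H3c15 (−0.48 as 1 measurement), H2bc7 (−0.43), H2bc15 (−0.42) and H3c8 (−0.40). All of these lost their call after quantile normalization. H2ac21 was also lost without BFA array 2 or 3 or hypoxia DMSO array 1, H2bc7 without hypoxia DMSO array 2, and H3c8 without hypoxia DMSO array 3.

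Set directly against EHT-1864, BFA gave lower levels of nearly every replication-dependent histone gene. By limma's adjusted p, 54 of the 57 were lower and 0 higher (also 54 and 0 at an unadjusted p under 0.05), while 16.9% of all clusters were called higher and 19.6% lower. All 52 genes above the floor were lower, against 39.3% of the clusters above the floor. The median difference was −0.77, and after quantile normalization it was −0.55 with 46 genes lower. The genes that did not pass, H1f6, H3c1 and H4f16, were below the floor everywhere. The largest gap was in H2bc8, which read 9.24, 9.00 and 9.18 with BFA, against 10.41, 10.57 and 10.26 with EHT-1864. That is a difference of −1.27 ± 0.12 (2.41-fold lower, limma adjusted p = 3.03e-06). H4c9 (−1.24), H2bu2 (−1.17), H2bc7 (−1.11), H1f3 (−1.11), H1f5 (−1.09), H2bc3 (−1.08) and H4bc24 (−1.07) followed, and no BFA array overlapped an EHT-1864 array in any of them.

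Hypoxia itself went with slightly lower histone signals. Against normoxia with DMSO, 52 of 57 replication-dependent genes had a negative difference, with a median of −0.40, against −0.03 for all clusters. By limma's adjusted p 12 fell, 1 rose and 44 did not pass, and at an unadjusted p under 0.05 the counts were 46 lower and 1 higher. In this comparison 2.11% of all clusters were called higher and 0.563% lower, and of those above the floor 3.95% were higher and 1.01% lower. The number of calls dropped whichever array of these groups was left out. Without hypoxia DMSO array 1, 2 or 3, or normoxia array 1 or 2, 2 genes fell, and without normoxia array 3 none did. The median difference over the 57 genes stayed between −0.44 and −0.37 in these fits. The 1 rise passed in each case. Leaving out BFA array 1, which enters through the shared estimate of spread, gave 21 lower, and leaving out EHT-1864 array 3 gave 7. Array weights gave 44 lower.

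The exception was H1f2, the linker histone H1.2. It read 8.96, 9.05 and 8.97 in hypoxia with DMSO, against 8.28, 8.04 and 8.26 in normoxia. All hypoxia arrays were higher, and the difference of 0.80 ± 0.11 (1.74-fold, limma adjusted p = 0.00154) passed under all alternatives. The other H1 genes went down or did not pass: H1f1 differed by −0.59, H1f5 by −0.45 (limma adjusted p = 0.0643) and H1f3 by −0.29 (limma adjusted p = 0.218).

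The largest falls above the floor were H2bc18, H4c3 and H2ac1. H2bc18 read 10.02, 9.99 and 9.93 in hypoxia with DMSO, against 10.59, 10.52 and 10.77 in normoxia, a difference of −0.65 ± 0.11 (1.57-fold lower, limma adjusted p = 0.00763). H4c3 differed by −0.63 ± 0.11 (1.55-fold lower, limma adjusted p = 0.00741). Both calls were lost without normoxia array 3 alone. H2ac1 (−0.63), H1f1 (−0.59), H2bc14 (−0.56), H3c8 (−0.53) and H2ac15 (−0.50) passed with all 12 arrays but lost their call when any 1 array of either group was left out, and H2ac1 also without EHT-1864 array 1 or 3. H1f6 also passed but was below the floor everywhere. Mean levels in hypoxia with EHT-1864 were above those in normoxia for H4c9 (10.75 and 9.39) and H4c3 (11.68 and 10.94), and below for H3c14 (12.15 and 12.61). This pair of groups differs in both oxygen and compound and was not tested.

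The histone variant genes did not move as a block with either compound against DMSO. Of 16, 5 rose and 1 fell with EHT-1864 (median 0.22), and 3 rose and 7 fell with BFA (median −0.19). With BFA against EHT-1864, 0 were higher and 9 lower (median −0.46), and in hypoxia 0 rose and 2 fell (median −0.21). Of the 11 above the floor, 3 rose and 1 fell with EHT-1864 (median 0.12), and 1 rose and 7 fell with BFA (median −0.57). Of these 11, 0 were higher and 9 lower with BFA than with EHT-1864 (median −0.84), and 0 rose and 2 fell in hypoxia (median −0.18). Among all clusters above the floor, 46.1% were lower with BFA and 39.3% with BFA against EHT-1864. The percentages of all clusters called are those given above for each comparison. H2ab3 and H2al2a, which account for 2 of the 3 rises with BFA and 2 of the 5 with EHT-1864, were below the floor on every array of those groups and of DMSO in hypoxia. Only 5 of the 16 matched by the array's own symbol.

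H3f3a and H3f3b code for the same protein, H3.3, the H3 variant laid down outside replication, and they differed in pattern. H3f3b read 12.57, 12.56 and 12.47 with EHT-1864, against 11.48, 11.44 and 11.47 with DMSO in hypoxia. It rose by 1.07 ± 0.10 (2.10-fold, limma adjusted p = 1.17e-05), and its levels with BFA of 11.26, 11.40 and 11.33 differed from DMSO by −0.14 ± 0.10 (limma adjusted p = 0.282). H3f3a read 9.44, 9.21 and 9.20 with BFA, against 10.36, 10.33 and 10.42 with DMSO, and fell by 1.09 ± 0.11 on the log2 scale (2.12-fold lower, limma adjusted p = 6.74e-06). With EHT-1864 H3f3a differed from DMSO by −0.18 ± 0.11 (limma adjusted p = 0.268). H3f3b was thus the one that changed with EHT-1864, and H3f3a the one that changed with BFA. The difference between the 2 genes was not tested.

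Their promoter windows also differ, and both are printed for that reason, with motif matches in capitals. H3f3a is at chr1:180813556-180813855 (minus strand) and H3f3b at chr11:116024455-116024754 (minus strand).
H3f3a: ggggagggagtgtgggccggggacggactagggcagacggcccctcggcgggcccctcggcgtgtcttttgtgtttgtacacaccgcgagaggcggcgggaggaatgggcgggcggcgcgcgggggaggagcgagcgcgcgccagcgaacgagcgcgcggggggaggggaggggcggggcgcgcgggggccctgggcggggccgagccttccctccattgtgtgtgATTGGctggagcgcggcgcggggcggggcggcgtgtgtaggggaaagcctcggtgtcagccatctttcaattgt
H3f3b: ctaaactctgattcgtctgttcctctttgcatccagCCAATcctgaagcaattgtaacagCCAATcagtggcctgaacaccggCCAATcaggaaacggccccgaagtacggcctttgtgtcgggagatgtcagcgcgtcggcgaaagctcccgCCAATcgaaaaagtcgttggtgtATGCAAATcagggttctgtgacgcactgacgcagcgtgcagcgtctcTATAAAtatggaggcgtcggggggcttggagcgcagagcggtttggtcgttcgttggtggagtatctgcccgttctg
H3f3b has TATAAA 27 bases before its start, 4 CCAAT boxes and the octamer on the other strand, whereas H3f3a has 1 CCAAT match on the other strand. On the minus strand the annotated H3f3b gene begins at base 116026039, so its window lies inside the gene. No window at that outer start was looked at. The H3f3a window holds the annotated beginning of its gene, at base 180813605. TATAAA and the octamer each occurred in 1 of 14 variant windows.

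H2ax, whose protein is phosphorylated at DNA breaks, was lower in all 4 comparisons. It read 8.93, 9.03 and 9.07 with BFA, 9.62, 9.48 and 9.54 with EHT-1864, 10.42, 10.24 and 10.34 with DMSO in hypoxia, and 10.86, 10.83 and 10.75 in normoxia, with no overlap between any of the groups. It fell by 1.32 ± 0.11 with BFA (2.50-fold lower, limma adjusted p = 7.19e-07) and by 0.79 ± 0.11 with EHT-1864 (1.73-fold lower, limma adjusted p = 1.73e-04) on the log2 scale. In hypoxia it differed by −0.48 ± 0.11 (limma adjusted p = 0.0350), a call that was lost when any 1 hypoxia DMSO or normoxia array, or EHT-1864 array 3, was left out. H2aj, another replacement H2A, rose with EHT-1864 (0.82) and BFA (0.46) and fell in hypoxia (−0.54). Its fall in hypoxia was likewise lost without any 1 hypoxia DMSO or normoxia array, and without EHT-1864 array 1 or 3.

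The macroH2A variants, which carry a large extra domain and are known from silent chromatin, were low with BFA. Macroh2a2 read 6.10, 6.53 and 6.28 with BFA, against 8.35, 8.50 and 8.40 with DMSO in hypoxia. Its fall of 2.12 ± 0.12 on the log2 scale (limma adjusted p = 4.34e-08) was the largest of any histone gene, with 1 of 3 BFA arrays still above the floor. Macroh2a1 differed by −0.47 ± 0.14 with BFA, a call lost after quantile normalization and without hypoxia DMSO array 3, and by 0.37 ± 0.14 with EHT-1864 (limma adjusted p = 0.0589). Macroh2a3, annotated as a pseudogene, was above the floor on all 3 arrays in normoxia but on 0 with BFA, 0 with EHT-1864 and 1 with DMSO in hypoxia, so no size is given for its call with BFA. Macroh2a2 was also called lower with BFA than with EHT-1864 (8.14, 8.13 and 8.03), and with 2 of 3 BFA arrays below the floor the sizes of both differences rest partly on background signal.

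H2A.Z, a variant found at promoters, has 2 genes. H2az1 passed in none of the 4 comparisons, with 0.04 ± 0.10 for BFA and −0.13 ± 0.10 for EHT-1864, both against DMSO in hypoxia, although it was called higher with BFA than with EHT-1864 after quantile normalization. H2az2 was lower with BFA (−0.57 ± 0.11, limma adjusted p = 7.68e-04). H1f10, the linker variant H1.10, was also lower with BFA (−0.80 ± 0.13, limma adjusted p = 3.10e-04) and differed by 0.12 with EHT-1864 (limma adjusted p = 0.535). H2ab1, an H2A.B gene known from testis, was 0.45 higher with EHT-1864, a call lost without EHT-1864 array 2 or hypoxia DMSO array 2.

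**Figure D3:**
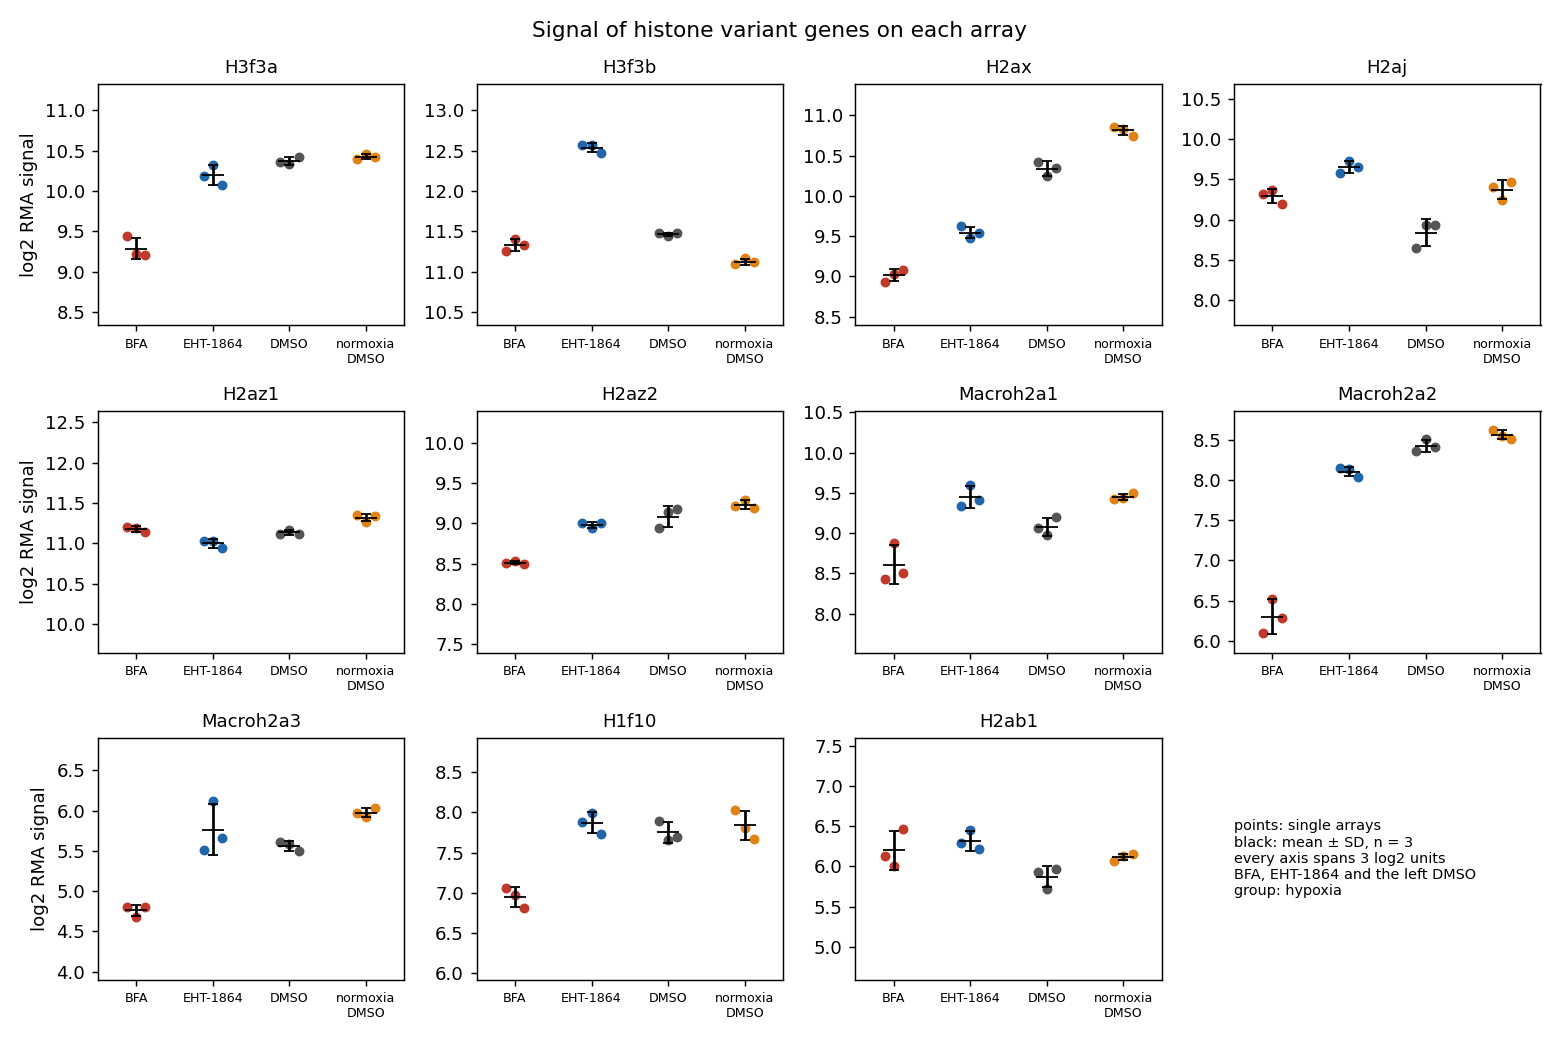
Log2 RMA signal of the 11 histone variant genes above the floor, with 1 point per array, the mean and SD of 3 arrays in black, and every axis spanning 3 log2 units. Macroh2a2, H3f3a, H2ax and H1f10 are low on BFA arrays, and H3f3b is high on EHT-1864 arrays.

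Genes that act with histones were read from lists of known members. Their counts stand beside the shares of all clusters called: 26.1% higher and 24.6% lower with BFA (46.1% lower above the floor), 13.0% and 17.4% with EHT-1864 (32.3% lower above the floor), 16.9% and 19.6% for BFA against EHT-1864, and 2.11% and 0.563% in hypoxia. DNA replication and S phase genes, which work when replication-dependent histones are needed, were mostly lower with BFA: of 30 measured, limma called 0 higher and 26 lower (median −1.09; 0 and 27 at an unadjusted p under 0.05). With EHT-1864, 6 rose and 8 fell (median 0.19), against 12 and 6 after quantile normalization. With BFA against EHT-1864, 1 was higher and 25 were lower (median −0.92). In hypoxia 0 rose and 5 fell (median −0.50), and all 30 differences were negative. That count became 1 or 2 when any 1 hypoxia DMSO or normoxia array was left out, 16, 12 and 11 without BFA array 1, BFA array 2 and EHT-1864 array 2, and 14 after quantile normalization. The replication list had a lower median than the replication-dependent histone genes with either compound, a difference that was not tested.

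Single genes show both patterns. Mcm6, part of the MCM helicase that opens DNA at the fork, was lower with BFA by 2.01 ± 0.13 (log2 −2.01, 4.03-fold lower, limma adjusted p = 1.28e-07) and differed by 0.21 with EHT-1864 (limma adjusted p = 0.261). Rrm2, a subunit of the ribonucleotide reductase that makes DNA precursors, was below the floor on all BFA arrays, so its signal was at least 3.54-fold lower than with DMSO, where the bound is set against the negative-control floor. It fell by 1.23 with EHT-1864 on the log2 scale. Prim1, the primase subunit, had 7.12, 7.25 and 7.15 with BFA, 9.15, 9.52 and 9.22 with EHT-1864, and 8.55, 8.67 and 8.52 with DMSO in hypoxia, so it lay below DMSO with BFA and above it with EHT-1864. Ccna2 and Ccne2, the S phase cyclins A2 and E2, fell with EHT-1864 by 0.80 and 1.61 on the log2 scale. Ccne2 was above the floor on 1 of 3 EHT-1864 arrays. Ccna2 also fell with BFA, by 1.83. Rrm1, the partner subunit of Rrm2, read 8.15, 8.33 and 8.20 with BFA, against 10.01, 10.33 and 9.92 with EHT-1864, a difference of −1.86 ± 0.13 (3.64-fold lower, limma adjusted p = 2.38e-07). In hypoxia against normoxia the 3 replication genes with the smallest p were Mcm3 (−0.66), Mcm10 (−0.80) and Prim1 (−0.62), of which Mcm10 and Prim1 lost their call without normoxia array 1 or hypoxia DMSO array 1, among others, and Mcm3 under no alternative.

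Among histone chaperones, 3 rose and 19 fell of 26 with BFA (median −0.50), against 4 and 11 after quantile normalization. With EHT-1864 3 rose and 7 fell (median −0.13; 4 and 5, with a median of 0.01, after quantile normalization), shares near the background, and in hypoxia 0 rose and 2 fell (median −0.23). Chaf1b, a subunit of CAF-1 that deposits new H3 and H4 at the replication fork, read 5.45, 6.27 and 5.99 with BFA, against 8.07, 7.77 and 8.11 with DMSO in hypoxia. It was below the floor on all BFA arrays and at least 2.82-fold lower (limma adjusted p = 3.88e-06), and with EHT-1864 it differed by 0.06. Its partner Chaf1a was lower in hypoxia (−0.66, lost without normoxia array 3) and with BFA (−0.43, lost after quantile normalization). Nasp, which holds free H3 and H4, fell by 1.46 with BFA, where 1 of 3 arrays was above the floor, and differed by 0.13 with EHT-1864. Asf1b, which hands H3 and H4 to CAF-1, fell with both compounds, by 1.16 with BFA and 0.87 with EHT-1864. Hira, the H3.3 chaperone, fell with both as well, by 0.85 with BFA, where array 1 was below the floor, and by 0.76 with EHT-1864. Anp32e, which removes H2A.Z, fell by 1.21 with BFA on the log2 scale, where 1 of 3 arrays was above the floor. Its fall of 0.37 with EHT-1864 lost its call when any 1 hypoxia DMSO or normoxia array was left out. That call was also lost without EHT-1864 array 1 or 3 or BFA array 3, and under both other scalings. Cenpa, the centromeric H3, fell by 0.95 with BFA and 0.54 with EHT-1864, and its chaperone Hjurp fell by 0.53 with BFA (lost after quantile normalization) and 0.52 with EHT-1864. Atrx, a remodeller that works with the H3.3 chaperone Daxx, fell by 0.46 with BFA, a call lost after quantile normalization. Daxx differed by 0.27 with BFA and −0.27 with EHT-1864, and Asf1a by −0.17 and −0.30 in that order, none of which passed.

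Genes for the transcription and processing of histone mRNA were 16 in number. With BFA 2 rose and 7 fell (median −0.14), but 5 rose and 3 fell after quantile normalization (median 0.15). With EHT-1864 1 rose and 2 fell (median −0.04), but 2 rose and 0 fell after quantile normalization. In hypoxia limma called 0 higher and 0 lower (1 and 3 at an unadjusted p under 0.05). Slbp, the stem-loop binding protein, read 8.94, 8.99 and 8.95 with BFA, 9.10, 9.13 and 9.21 with EHT-1864, and 9.04, 8.82 and 8.95 with DMSO in hypoxia. It passed in none of the comparisons with 0.02 ± 0.11 for BFA and 0.21 ± 0.11 for EHT-1864, and passed after quantile normalization in both. Npat, the activator of histone gene transcription, differed by 0.03 with BFA and by −0.50 ± 0.18 with EHT-1864 (limma adjusted p = 0.0517). Hinfp, which binds H4 promoters, rose by 0.52 with BFA, a call lost without BFA array 3 or hypoxia DMSO array 2 or 3. Eri1, an exonuclease that trims the stem-loop, fell by 0.63 with BFA, a call lost after quantile normalization. Lsm11, of the U7 particle that cuts histone pre-mRNA, was below the floor on all BFA arrays and at least 1.03-fold lower than with DMSO (limma adjusted p = 0.00607), while its partner Lsm10 passed in none of the comparisons. Casp8ap2, needed for histone gene expression, fell by 0.40 with EHT-1864, where array 2 was below the floor. The call was lost under both other scalings and without EHT-1864 array 2 or 3, or array 2 or 3 of either DMSO group. Zfp473 was below the floor on every array.

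**Figure D4:**
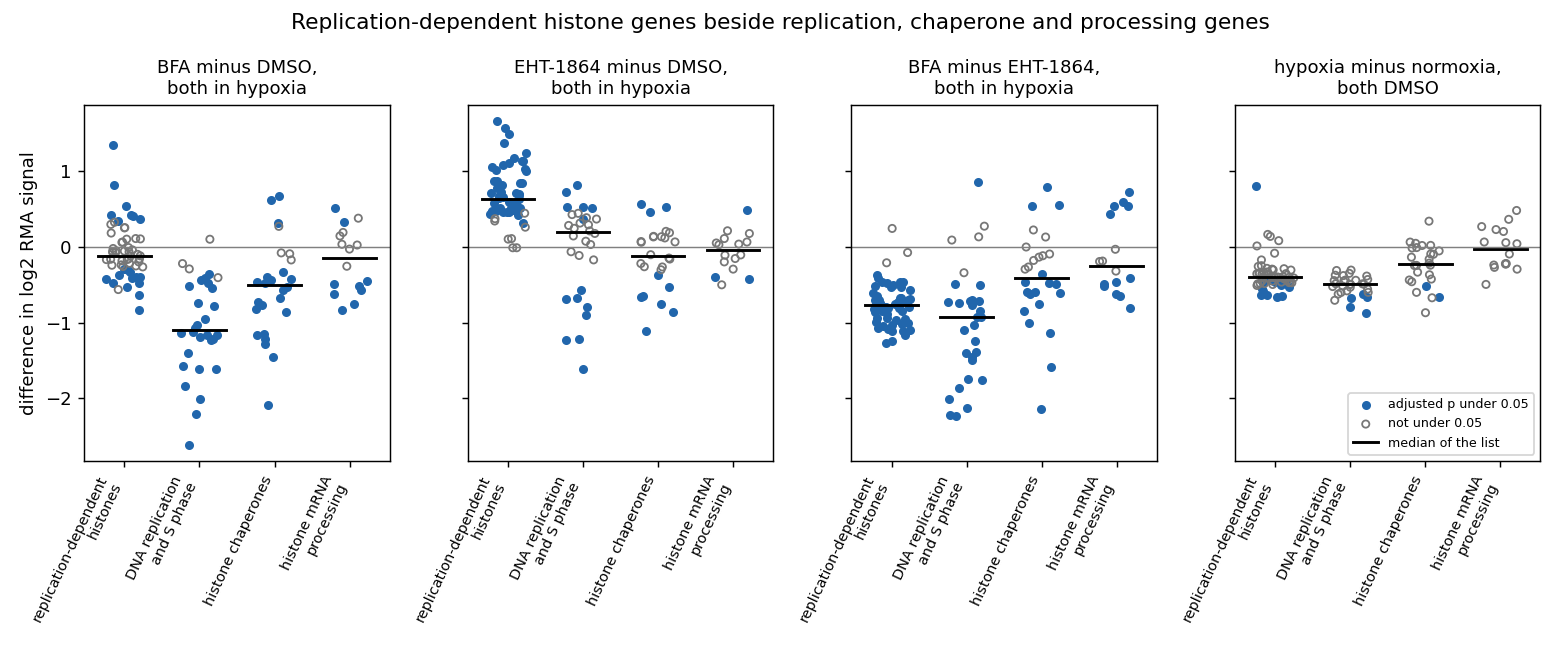
Difference in log2 RMA signal for the 57 replication-dependent histone genes beside 30 DNA replication genes, 26 histone chaperones and 16 histone mRNA genes in the 4 comparisons (filled points have a limma adjusted p under 0.05, bars are medians). The replication genes sit at a median of −1.09 with BFA, where the histone genes sit at −0.12, and at 0.19 with EHT-1864, where the histone genes sit at 0.63.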

How the data were processed

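The authors' deposited values were log2 signals made by RMA in Affymetrix Expression Console, per the submitters' processing notes. Versions, settings and the genome build are not given in the sources used here. RMA quantile-normalizes arrays together and hides any change in the total amount of RNA in a cell. The spread of the deposited cluster values still differed between groups, as given above. Of 28846 features, 6640 controls were left out of the tests, and 22206 transcript clusters were fitted on all 12 arrays with limma 3.58.1 in R 4.3.3 (lmFit, eBayes, Benjamini-Hochberg over all clusters, adjusted p threshold 0.05). With 3 arrays a group, the number of arrays limits precision. The p-values set each difference against a spread within groups estimated from all 12 arrays, which limma adjusts using the other clusters. The floor was the 95th percentile of 5222 negative-control probes per array. The script was tested on simulated data.

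Members and lists were chosen with earlier results of these data known. The array annotation uses current symbols, so H2af and Hist names were matched through RefSeq synonyms, and H1f1 to H1f6 were classed as replication-dependent by their older Hist1 symbols, unlike the first written class rule. A set rule named the replication-dependent genes with the 8 largest rises and falls per comparison among calls with non-overlapping arrays. It also named all variants, and set list members plus the 3 replication genes with the smallest p. Further replication-dependent genes, such as H2ac8 and H3c13, were given outside this rule, and some of them did not pass. Those are not among the single-gene results under alternatives below. Whether array numbers pair samples was not settled: of 18 equal-numbered pairs of arrays, 1 had a correlation above 0.1. These correlations ran over all clusters, most of them below the floor, so low values cannot exclude shared cultures.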

Additional observations from a re-analysis of the deposited data

How the results depend on the processing

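Across 173 results of a single gene in a comparison and 20 alternatives each, 112 kept direction and side of the threshold throughout and 0 changed direction; 182 of 3448 values were no longer past the threshold and 69 were newly past it. The EHT-1864 and BFA against EHT-1864 counts of replication-dependent genes moved by less than 1.5 times, except that a 1.5-fold minimum left 31 for EHT-1864. The hypoxia count was the least stable. From 13 replication-dependent genes it became 29 with the dimmest 25% of clusters left out, 42 with clusters of log2 at least 6 alone (fewer clusters tested in both), 44 with limma's trend and robust settings, 45 with array weights, 26 from the 6 arrays compared, 6 with a 1.5-fold minimum, and between 1 and 22 with 1 array left out. The cause of the moves with trend and robust settings and with array weights was not tested. Variant calls in hypoxia were 2 and became 5 with array weights, 0 with a 1.5-fold minimum, 0 by the array's own symbols, 5 with H1f1 to H1f6 counted as variants (chosen after seeing the data, like the own-symbol setting), and 0 to 2 with 1 array left out.

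For BFA, the 21 replication-dependent calls became 33 with trend and robust settings, 12 from the 6 arrays compared, 4 with a 1.5-fold minimum and 12 to 21 with 1 array left out; the 8 higher and 13 lower became 13 and 1 after quantile normalization and 10 and 10 after median subtraction. The 10 variant calls became 6 with a 1.5-fold minimum and 2 by the array's own symbols. For EHT-1864, the 6 variant calls became 3 with a 1.5-fold minimum, 1 by own symbols and 10 with H1f1 to H1f6, and they ranged from 4 to 8 with 1 array left out. The 9 variant calls of BFA against EHT-1864 became 3 by own symbols. With the array number as a replicate block, the replication-dependent counts were 5 for hypoxia, 20 for BFA, 48 for EHT-1864 and 54 for BFA against EHT-1864, and the variant counts 0, 10, 6 and 8 in the same order. Whether the numbers pair the arrays was not settled (correlations of deviations from −0.18 to 0.17). Signal over background limits the 5 replication-dependent and 5 variant genes below the floor.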
